A study of Mus musculus with 21 samples.

Results

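The chemokine ligands of microglia are described here as 10 genes: Ccl2, Ccl3, Ccl4, Ccl5, Ccl6, Ccl7, Ccl12, Cxcl2, Cxcl10 and Cxcl16. They were taken by gene name from both tables of the study, as 10 of 18079 genes in the genotype table and 10 of 13297 in the injection table. The study asks how apolipoprotein E (ApoE), a lipid carrier protein of the brain, affects the RNA of microglia. The genotype table compares libraries labelled as C57BL/6 WT females (n = 7) with libraries labelled as ApoE KO females of the strain B6.129P2-Apoetm1Unc/J (n = 4), none of them injected. The injection table compares libraries labelled as ApoE KO males of that strain injected with rAPOE dissolved in PBS (n = 5) with libraries labelled as ApoE KO males injected with PBS (n = 5), so both injection groups lack the gene. All mice were 12 to 18 weeks old. The injection was made into the left hemisphere, and both hemispheres were collected 16 h later. The labels do not tell which hemisphere a library holds, nor whether the replicates are different animals. The p-values therefore reflect only how far these libraries differ from each other, which may include technical variation. Knockout in this strain is constitutive and thus not limited to microglia.

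Chemokines are small secreted proteins that draw leukocytes along a gradient by binding G protein-coupled receptors. Microglia, the resident macrophages of the brain, make them in response to infection, injury, cytokines and lipid or protein debris, largely through NF-kB and interferon signalling. The ligands described here differ in the cells they attract. Ccl2, Ccl7 and Ccl12 bind CCR2 and recruit monocytes. Ccl3, Ccl4 and Ccl5 attract T cells and macrophages, and Ccl3 and Ccl5 bind CCR1. Ccl6 is a macrophage chemokine of rodents that binds CCR1. Cxcl2 binds CXCR2 and recruits neutrophils, Cxcl10 is an interferon-induced ligand of CXCR3 on T and natural killer cells, and Cxcl16 is a membrane-bound scavenger receptor for oxidised lipids whose shed form binds CXCR6.

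In GENCODE M21 for GRCm38, 8 of these genes lie on chromosome 11 and Cxcl2 and Cxcl10 on chromosome 5, and all are protein-coding. Ccl2 (82035571 to 82037453), Ccl7 (82045712 to 82047525) and Ccl12 (82101845 to 82103400) are neighbours on the plus strand of chromosome 11. Ccl5 (83525778 to 83530518), Ccl6 (83587882 to 83593087) and Ccl3 (83647844 to 83649355) lie on its minus strand, and Ccl4 (83662584 to 83664683) lies next to Ccl3 on the plus strand. Cxcl16 is apart from these at 70453983 to 70459984 on the minus strand. Cxcl2 (90903871 to 90905938, plus) and Cxcl10 (92346638 to 92348889, minus) are on chromosome 5. The assay reads tags near the 3′ end of transcripts, so each value rests on the last part of the gene.

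Promoter windows from RefSeq (GRCm38.p6), each covering 250 bases before and 50 bases after a gene start, were found for 5 of the 10 genes: Ccl3, Ccl6, Ccl12, Cxcl2 and Cxcl10. The 250 bases before the start are printed for 4 of them, because they are a gene with both kinds of match searched for (Cxcl10), a gene with one kind (Cxcl2), a gene that rose after rAPOE without either (Ccl12), and the gene whose values lay lower after rAPOE (Ccl6). Each runs 5′ to 3′ on the strand of its gene, and capitals mark matches to the NF-kB consensus or to the interferon-stimulated response element. Cxcl10 is read from chr5:92348890-92349139 (minus), Cxcl2 from chr5:90903649-90903898 (plus), Ccl12 from chr11:82101595-82101844 (plus) and Ccl6 from chr11:83593088-83593337 (minus).
Cxcl10: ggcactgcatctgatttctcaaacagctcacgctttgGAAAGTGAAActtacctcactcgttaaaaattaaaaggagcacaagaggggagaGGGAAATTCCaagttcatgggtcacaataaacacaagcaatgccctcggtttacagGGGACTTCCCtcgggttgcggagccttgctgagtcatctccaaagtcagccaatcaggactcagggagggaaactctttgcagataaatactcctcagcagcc
Cxcl2: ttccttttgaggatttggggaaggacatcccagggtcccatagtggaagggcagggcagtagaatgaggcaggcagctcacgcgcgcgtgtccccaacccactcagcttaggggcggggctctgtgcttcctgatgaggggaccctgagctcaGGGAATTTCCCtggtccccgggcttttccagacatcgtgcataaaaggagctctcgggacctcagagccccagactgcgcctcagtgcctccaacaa
Ccl12: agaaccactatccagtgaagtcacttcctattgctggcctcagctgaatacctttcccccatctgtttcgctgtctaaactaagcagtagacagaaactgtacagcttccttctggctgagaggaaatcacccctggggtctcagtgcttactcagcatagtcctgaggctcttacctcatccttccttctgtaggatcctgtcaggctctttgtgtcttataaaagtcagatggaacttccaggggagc
Ccl6: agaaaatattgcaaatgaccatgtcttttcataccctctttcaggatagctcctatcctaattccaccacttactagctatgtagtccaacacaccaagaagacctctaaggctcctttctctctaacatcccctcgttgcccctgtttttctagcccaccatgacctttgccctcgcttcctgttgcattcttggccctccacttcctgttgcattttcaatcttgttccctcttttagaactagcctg

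Both strands were searched for the NF-kB consensus, the interferon-stimulated response element, an AP-1 site (TGANTCA) and a TATA box (TATAAA), and overlapping matches were counted. The Cxcl10 window held 2 NF-kB matches, beginning at -159 and -103 from the gene start, 1 interferon-stimulated response element at -213 and 1 AP-1 site at -74. The Cxcl2 window held 2 overlapping NF-kB matches at -97 and -96 on the same stretch, and no interferon-stimulated response element. The Ccl12 window held a TATA box at -31 and none of the other motifs, and the Ccl3 and Ccl6 windows held none of the 4. Of all 32851 windows, 4.51% held the NF-kB consensus, 3.44% the interferon-stimulated response element, 7.81% the AP-1 site and 13.6% the TATA box. A match describes letters and not binding, and these windows leave out more distant elements.

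The normalised count of Apoe averaged 12573 ± 5263 (SD, n = 7) over wild-type libraries. Knockout libraries 1 to 4 held 18, 0, 0 and 52 Apoe reads (8.32 ± 10.9, SD, n = 4), and no injection library exceeded 8.54. Among the wild-type libraries, 8 stood apart with Apoe at 1011, the rest having 13195 to 17163. The other wild-type libraries, labelled female, also held 11 to 36 Y-linked reads, whereas library 8 and the knockout libraries held 0. PBS library 5 and rAPOE library 5, labelled male, held 0 Y-linked reads and Xist at 979 and 718. Pairs of wild-type libraries without library 8 were much alike (chi-square per gene of 3.92 to 7.1 between their reads, over 15 pairs), above sampling noise but far below the 33.7 to 66 of knockout pairs. This measure grows with the number of reads, which was higher in the knockout libraries. In the injection table, libraries 4 and 5 of both groups held 10025 to 11342 detected genes and libraries 1 to 3 held 7601 to 8837. Reads per library came to 2016972 to 3054976 in the wild type, 4247865 to 4969287 in the knockout, 704225 to 1347501 after PBS and 857059 to 1119059 after rAPOE. Microglial markers (11 of 11 tested in each table) gave summed normalised counts of 51538 to 82751 in the genotype table and 11069 to 25531 in the injection table, with none at 0 in a whole table. A normalised count is a library's read count divided by a library-wide factor, and the tables were normalised apart, so levels are not compared between them.

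Between genotypes, Ccl3, Ccl4, Ccl5, Ccl6, Cxcl2 and Cxcl16 were at lower values in the knockout, of which Ccl4 and Ccl5 passed the test. Ccl4 fell 2.91-fold, and Ccl5 fell but had reads in 1 of the 4 knockout libraries. Of the 10 ligands, 9 reached the mean normalised count of 10 needed for the test, 2 passed as lower and 0 passed as higher (limma, Benjamini-Hochberg adjusted p under 0.05 over 10401 genes). The share of all tested genes called was 19.8% lower and 5.14% higher, so 2 of 9 lower is near the background. For 0 of the 9 did all knockout libraries lie below every wild-type library, as they did for 10.6% of tested genes, or above every one, as for 3.67%. The median difference of the 9 tested ligands was -0.97 on the log2(normalised count + 1) scale, beside -0.45 for all genes tested. Quantile rescaling moved the median of all genes to 0.09. The median of the ligands was then -0.96, but low ligands moved by more than that of all genes: Ccl5 went from -3.38 to -0.96, Cxcl2 from -2.64 to -1.08, Cxcl10 from 0.30 to 1.28 and Ccl12 from -0.95 to 0.0094, whereas Ccl3, Ccl4 and Ccl6 were then at -0.97, -1.35 and -1.11.

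**Figure D1:**
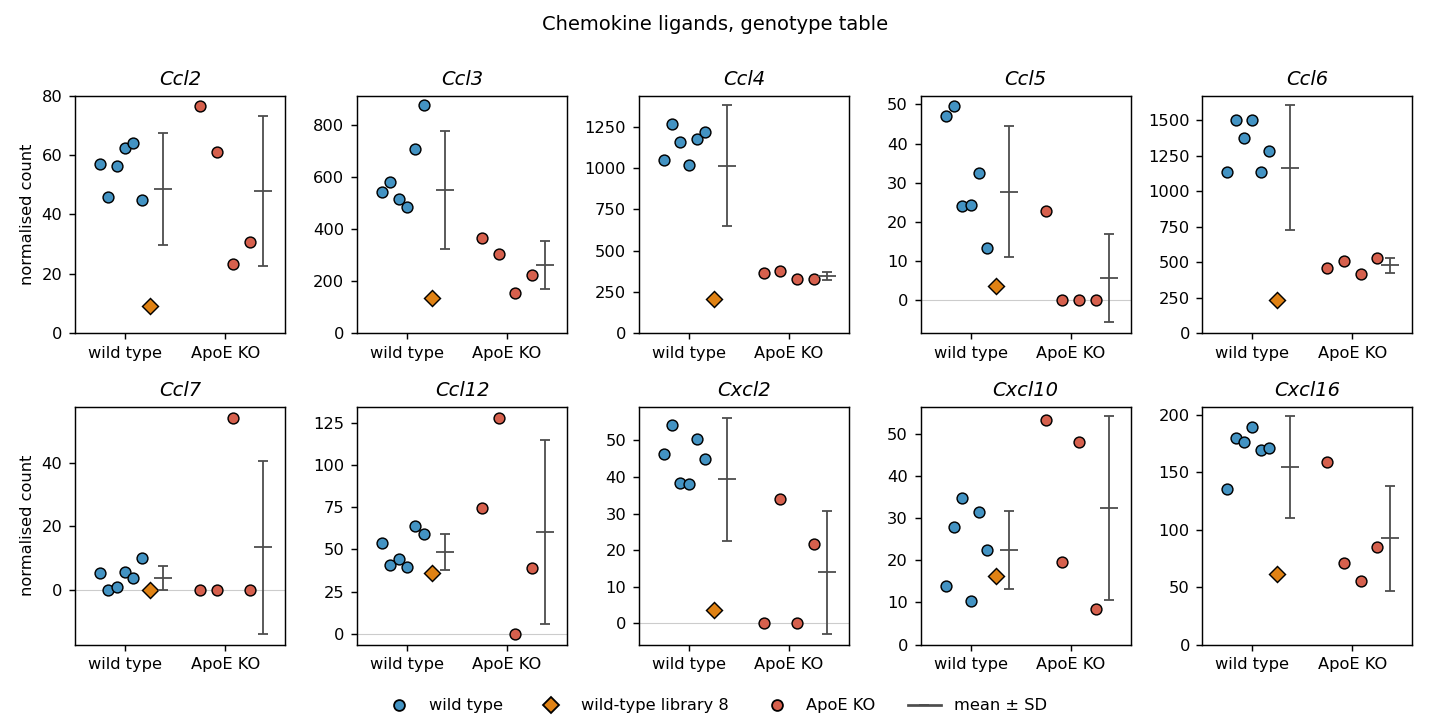
Normalised count of each ligand (y axis, one linear scale per panel, starting at 0 or just below) in wild-type and ApoE KO libraries, 1 point per library, with the mean and SD of all libraries of the group beside the points. Wild-type library 8 (diamond) is the lowest wild-type library for 8 of the 10 ligands, and for Ccl3, Ccl4, Ccl6 and Cxcl2 the 4 knockout libraries lie below the 6 other wild-type libraries.

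Ccl4, a ligand that attracts T cells and macrophages, stood at 364, 376, 329 and 326 in the 4 knockout libraries. In the wild type its lowest value was 209 (library 8), its median 1160 and its highest 1265. All knockout libraries thus lay below the wild-type libraries other than 8 (1018 to 1265) and above library 8. The means were 1014 ± 366 (SD, n = 7) and 349 ± 24.9 (SD, n = 4), and Ccl4 fell by 1.37 log2 units (limma adjusted p = 0.0208, SE 0.39; edgeR adjusted p = 0.00785). The call held with each of the 11 libraries left out.

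Ccl3, the neighbour of Ccl4 and a ligand of CCR1, was at 365, 306, 156 and 223 in the knockout. The wild type ran from 137 (library 8) through a median of 543 to 877. The groups overlapped through library 8 alone, since the other wild-type libraries were at 485 or above. The difference was -0.97 (SE 0.40, limma adjusted p = 0.0928), and without wild-type library 8 it was -1.27 (SE 0.23, limma adjusted p = 0.00115).

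Ccl6 behaved much like Ccl4 across the 11 libraries. It was at 459, 510, 414 and 532 in the knockout, and at 233 (library 8), a median of 1285 and a highest value of 1499 in the wild type. Apart from library 8, the wild-type libraries (1134 to 1499) again lay above all knockout libraries. The means were 1166 ± 438 (SD, n = 7) and 479 ± 52.7 (SD, n = 4), and the difference of -1.10 (SE 0.40) did not pass with all libraries (limma adjusted p = 0.0604) but did without library 8 (-1.46, SE 0.11, limma adjusted p = 1.18e-06) and in edgeR (adjusted p = 0.0274). By the root mean square distance between centred log2 values over the 11 libraries, the gene nearest to Ccl4 was Ccl6 and the gene nearest to Ccl6 was Ccl4 (0.21), which includes the low value of library 8 that both share. The library-wide factor is common to both genes.

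Ccl5, a ligand of CCR1 and CCR3 also known as RANTES, was low in this table. It was at 22.7 in knockout library 1 (40 reads) and at 0 in knockout libraries 2, 3 and 4, where a count of 0 allows a level of up to 1.34, 1.3 and 1.33. In the wild type it ran from 3.61 (library 8) through a median of 24.3 to 49.5. Knockout library 1 lay within the wild-type range, and the other knockout libraries below it. Ccl5 fell by 3.38 log2 units (limma adjusted p = 0.0184, SE 0.95), but the call was lost without knockout library 2 (adjusted p = 0.0502) or 4 (0.0520), under quantile rescaling (-0.96, adjusted p = 0.394), in edgeR (adjusted p = 0.340) and in DESeq2 (adjusted p = 0.228). It reached the mean of 10 only through the wild type.

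The CCR2 ligands gave no call. Ccl2, the main monocyte attractant, was at 76.6, 61.0, 23.3 and 30.6 in the knockout and at 9.03 (library 8), a median of 56.5 and a highest value of 64.1 in the wild type. The groups overlapped widely, with a difference of 0.01 (SE 0.55, limma adjusted p = 0.991) whose sign turned in several alternatives. Ccl12, a mouse CCR2 ligand, was at 74.4, 128, 0 and 39.0 in the knockout, against a wild-type range of 36.1 to 64.1. The knockout libraries lay on both sides of the wild type, so the difference of -0.95 (SE 0.98, limma adjusted p = 0.505) rests on knockout library 3, and without it the difference was 0.60. Ccl7, which binds CCR2 and other CC receptors, averaged 7.32 over the table, below the limit for the test. It was at 0 in knockout libraries 1, 2 and 4, at 54.0 (125 reads) in knockout library 3, and between 0 and 10.2 in the wild type (difference -0.32; exact permutation p = 0.788 over 330 splits, two-sided).

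Among the CXC ligands, Cxcl2 was at 0, 33.8, 0 and 21.7 in the knockout and at 3.61 (library 8), a median of 44.9 and a highest value of 54.3 in the wild type. All knockout libraries lay below the wild-type libraries other than 8 (38.2 to 54.3). Its difference of -2.64 (SE 1.06) did not pass with all libraries (limma adjusted p = 0.0849; -3.12 and 0.0319 without library 8). Of 502 50-base words from the last 300 bases of its transcripts, 24 are shared with Cxcl3, so part of its count is uncertain. Cxcl16 was at 159, 71.2, 55.3 and 85.1 in the knockout, with a wild-type range of 61.4 (library 8) to 190 and a median of 171. Knockout library 1 lay among the wild-type values and the other knockout libraries lay below the wild-type libraries other than 8 (difference -0.77, SE 0.34, limma adjusted p = 0.121; -0.98 and 0.0124 without library 8). Cxcl10 was at 53.4, 19.6, 48.0 and 8.42 in the knockout and at 10.4, a median of 22.4 and a highest value of 34.8 in the wild type, which overlapped (difference 0.30, SE 0.60, limma adjusted p = 0.738).

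Wild-type library 8 decided how many ligands passed. Without it 6 of 9 passed as lower (Ccl3, Ccl4, Ccl5, Ccl6, Cxcl2 and Cxcl16) and 0 as higher, where 23% of all genes tested passed as lower and 7.64% as higher. For Ccl3, Ccl4, Ccl6 and Cxcl2 every knockout library lay below every other wild-type library, a pattern that 17.7% of all tested genes had. Library 8 itself lay below every knockout library for Ccl2, Ccl3, Ccl4 and Ccl6, as it did for 15.9% of tested genes. The 6 wild-type libraries that remain resemble each other closely. Their small spread enters these p-values together with the spread of the knockout libraries, since the fit pools both groups.

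Markers of cell types differed between the same libraries. Choroid plexus markers moved most, with 6 of 6 lower in the knockout and a summed level of 56983 to 83031 over the wild type without library 8, 23525 in library 8 and 429 to 872 in the knockout. Microglial markers went the other way, with 6 of 11 higher and 0 lower, and summed to 51538 to 55048, to 70336 in library 8 and to 70169 to 82751 in the knockout. The shares of all tested genes are 5.14% higher and 19.8% lower. Neuron markers were lower for 4 of 5 tested (462 to 665 summed over the wild type without library 8, 25.3 in library 8, at most 51.2 in the knockout), astrocyte markers for 4 of 5 (1302 to 1615, 863 and 511 to 1008), B cell markers for 2 of 3 (123 to 183, 30.7 and 27.2 to 73.5) and border macrophage markers for 2 of 8 (677 to 807, 253 and 136 to 305). The border macrophage count is near the share of all genes. Among these markers Pf4 fell most (344 ± 140 to 2.98 ± 5.96), whereas Mrc1 was at 106 in both groups. Of 10 monocyte markers, 9 were tested, 5 passed as lower and 0 as higher in the knockout. Their summed level was 1282 to 1556 over the wild type without library 8, 66.8 in library 8 and 3.46 to 265 in the knockout. Fn1 had the highest wild-type mean of them (866 ± 381, knockout 0.14 ± 0.28). Ly6c2 (9.24 to 12.3), Chil3 (10.6 to 42.3), Ccr2 and Itgal gave no call. Mast cell markers summed to 239 to 299 over the wild type without library 8, to 0 in library 8 and to at most 3.12 in the knockout. The 11 T and natural killer cell markers summed to 50.03 to 113 over the wild type without library 8, to 7.22 in library 8, to 71.7 in knockout library 3, all of it Cd4, and to 0 in knockout libraries 1, 2 and 4. In the knockout 10 of these 11 markers, among them Cd3e, Cd8a and Nkg7, were at 0 in every library. Neutrophil markers did not separate the groups in this way (182 in library 8, 2083 to 2748 in the other wild-type libraries, 1600 to 6251 in the knockout). In bulk RNA fewer cells of a type and less RNA per cell cannot be told apart, and the part of these cells in the ligand values was not tested.

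The rest of the chemokine system differed as well. Of 27 other chemokine ligands, 9 were tested, 6 passed as lower and 0 as higher, with a median difference of -3.80, the value of Cx3cl1. Of all tested genes 19.8% passed as lower, and the 6 had knockout means under 10, so they entered the test through the wild type alone. Under quantile rescaling 4 of the 9 passed as lower, beside 1027 of all 10401 tested genes. The 6 were Pf4, the platelet factor that border macrophages also make (344 ± 140 to 2.98 ± 5.96, a fall of 7.22 log2 units), Cxcl13, Ppbp, Cxcl14, Cx3cl1, the neuronal ligand of the microglial receptor CX3CR1, and Ccl25. Cxcl14, Cx3cl1 and Ccl25 did not pass in edgeR (adjusted p of 0.0561, 0.0633 and 0.240). Of the receptor genes, Ccr1 (difference -0.15, limma adjusted p = 0.869) and Ccr2 (-2.18, limma adjusted p = 0.0978) gave no call.

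Of 22 genes of NF-kB and interferon signalling, 6 passed as higher and 2 as lower (median difference 0.12), beside 5.14% higher and 19.8% lower among all tested genes. Under quantile rescaling and in edgeR the count was 6 higher and 0 lower. Of all 10401 tested genes, 920 passed as higher and 1027 as lower under quantile rescaling, and 499 and 1159 in edgeR. The signalling genes that rose with all libraries in limma were the lipopolysaccharide receptor Tlr4 (82.0 ± 32.1 to 207 ± 36.1), its adaptor Myd88 (136 ± 23.6 to 226 ± 39.8), the interferon receptor chain Ifnar2, and the factors Irf5, Irf8 and Irf9. Those that fell were Nfkb2, an NF-kB subunit, and Nfkbiz, a nuclear regulator of NF-kB targets. Of 17 genes that respond to tissue dissociation, Btg2 rose, Atf3 (791 ± 156 to 355 ± 41.6) and Egr2 fell, and the median difference was -0.06. The 2 tested proteases that shed or cleave ligands, Adam10 and Adam17, gave no call.

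After injection of rAPOE into the knockout brain, 4 of the 10 ligands rose: Ccl5 41.8-fold, Cxcl10 8.31-fold, Ccl12 5.80-fold and Cxcl16 4.48-fold in mean normalised count. All 10 were tested, and 0 passed as lower. Of 7066 genes tested, 0.368% passed as higher and 0.113% as lower, beside 4 of 10 ligands as higher. Ccl5 (mean 8.53 after PBS) entered the test only through the rAPOE group. The ligands were also chosen with earlier results of these data known, so setting 4 of 10 beside the share describes and does not test. The median difference was 2.11 for the 10 ligands and -0.01 for all genes tested. The 4 called ligands took ranks 3 to 6 of all genes by p and kept the call with each of the 10 libraries left out and under the TMM and quantile rescalings.

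**Figure D2:**
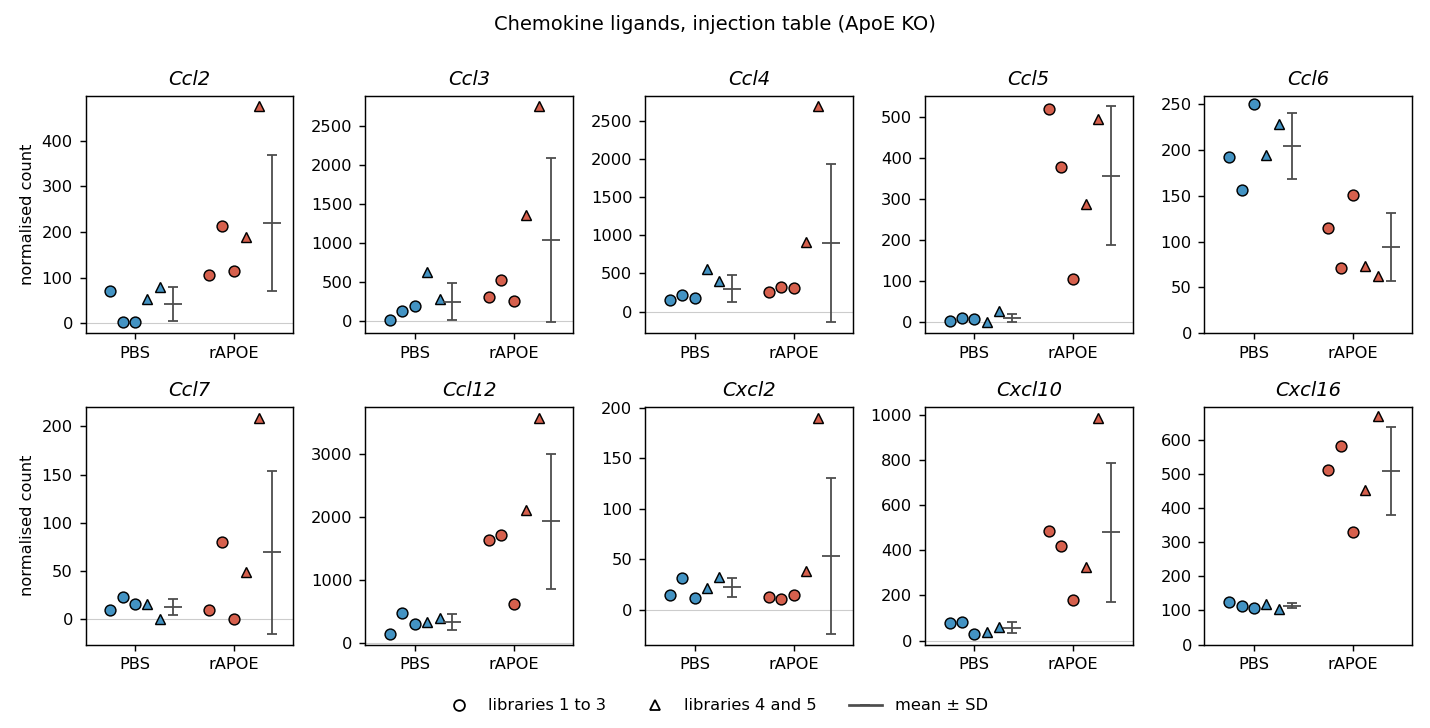
Normalised count of each ligand (y axis, one linear scale per panel) in ApoE KO libraries after PBS and after rAPOE, 1 point per library, with the mean and SD of each group. For Ccl2, Ccl5, Ccl12, Cxcl10 and Cxcl16 all rAPOE libraries lie above all PBS libraries, for Ccl6 all lie below, and rAPOE library 5 is the highest of its group for 8 of the 10 ligands.

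Ccl5 was nearly absent after PBS, at 1.65, 8.85, 6.40, 0 and 25.7 in libraries 1 to 5. After rAPOE it was at 519, 378, 103, 286 and 495, so that the lowest rAPOE library was above the highest PBS library. The means were 8.53 ± 10.3 (SD, n = 5) and 356 ± 170 (SD, n = 5), and the log2 value rose by 5.82 (SE 0.72, limma adjusted p = 1.18e-04; edgeR adjusted p = 7.44e-04). It reached the mean of 10 only through the rAPOE group. The gene nearest to it over the 10 libraries was Marco, a scavenger receptor of macrophages (root mean square distance 1.34), followed by the acute-phase gene Saa3 (1.39) and the transporter Slc13a3 (1.57).

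Cxcl10, whose window holds both kinds of match printed in capitals, was at 76.1, 83.4, 30.4, 38.9 and 59.8 after PBS and at 486, 418, 181, 325 and 989 after rAPOE. The lowest rAPOE library was above the highest PBS library. Cxcl10 rose by 2.91 (SE 0.40, limma adjusted p = 4.28e-04), from 57.7 ± 23.0 to 480 ± 307 (SD, n = 5 each). Its nearest gene was the interferon-induced membrane protein Ifitm3 (0.63), then Cxcl16 (0.65) and the scavenger receptor Msr1 (0.66).

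Cxcl16 varied little after PBS, at 123, 113, 107, 120 and 106. After rAPOE it was at 513, 583, 330, 454 and 669, with no overlap between the groups. It rose from 114 ± 7.75 to 510 ± 129 (SD, n = 5 each), which is 2.12 log2 units (limma adjusted p = 1.13e-04, SE 0.26). Its nearest genes were the glutaredoxin Glrx (0.37), the Fc receptor Fcgr4 (0.37) and the ferritin chain Fth1 (0.43). The proteases Adam10 and Adam17, which shed CXCL16 protein, gave no call.

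The CCR2 ligands differed among themselves. Ccl12 was at 151, 484, 304, 329 and 403 after PBS and at 1639, 1720, 630, 2116 and 3584 after rAPOE, without overlap, and rose by 2.43 (SE 0.36, limma adjusted p = 0.00122). Its nearest gene was the carboxypeptidase Cpd (0.38), followed by Cxcl16 (0.60). Ccl2 was at 70.3, 2.53, 1.6, 52.7 and 80.4 after PBS and at 106, 213, 115, 189 and 476 after rAPOE. All rAPOE libraries lay above all PBS libraries, as for 1.59% of tested genes, but PBS libraries 2 and 3 were far below the other PBS libraries. They held 2 reads and 1 read of Ccl2, under the floor of 3 reads, and enlarge the log2 difference. The difference of 3.27 (SE 0.81) did not pass (limma adjusted p = 0.0789; edgeR adjusted p = 0.215), and it passed without PBS library 5 (adjusted p = 0.0406). Ccl7 was at 9.93, 22.8, 16, 15.8 and 0 after PBS and at 9.43, 80.7, 0, 48.9 and 209 after rAPOE, which overlapped (difference 1.38, SE 1.24, limma adjusted p = 0.721).

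Ccl3 and Ccl4 were high in libraries 4 and 5 of each group. Ccl3 was at 21.5, 133, 195, 634 and 292 after PBS and at 310, 525.6, 256, 1364 and 2758 after rAPOE. Ccl4 was at 147, 215, 182, 552 and 406 after PBS and at 256, 317, 304, 906 and 2685 after rAPOE. The PBS and rAPOE groups overlapped as a whole for both genes. Neither passed, with differences of 2.10 (SE 0.67, limma adjusted p = 0.211) for Ccl3 and 1.10 (SE 0.50, limma adjusted p = 0.417) for Ccl4.

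Ccl6 went in the other direction. It was at 192, 157, 250, 194 and 228 after PBS and at 114, 71.6, 151, 73.7 and 62.2 after rAPOE. Each rAPOE library was below each PBS library, as for 1.54% of tested genes. The means were 204 ± 35.9 and 94.5 ± 37.2 (SD, n = 5 each), 2.16-fold apart, and the difference of -1.17 (SE 0.32) did not pass in limma (adjusted p = 0.122) or edgeR (0.193) but did in DESeq2 (0.0396) and in limma without rAPOE library 3 (0.0373). The genes nearest to Ccl6 were Sparc (0.25) and the microglial gene Selplg (0.27). The Ccl6 window printed above held none of the motifs searched, as did that of Ccl3.

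Cxcl2 was at 14.9, 31.6, 11.2, 21.7 and 32.2 after PBS and at 13, 11.1, 15.1, 38 and 190 after rAPOE. Apart from rAPOE library 5 the groups covered much the same range, and the difference of 0.42 (SE 0.77, limma adjusted p = 0.880) became -0.26 without that library. The gene nearest to it was Ccl4 (0.61). Its window, like that of Cxcl10, held NF-kB matches.

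**Figure D3:**
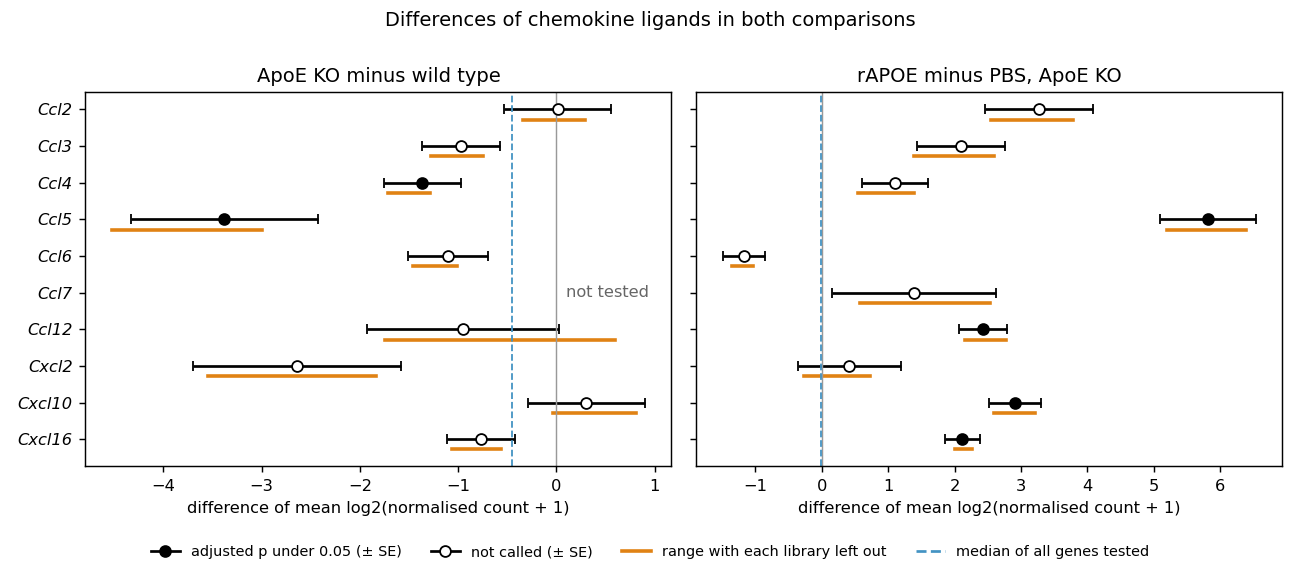
Difference of mean log2(normalised count + 1) for each ligand (points, with SE bars; filled where the limma adjusted p is under 0.05), ApoE KO minus wild type at left and rAPOE minus PBS at right, with the range when each library is left out in turn and the median of all genes as a dashed line. Ccl5 has the largest difference of the ligands in each panel, -3.38 and 5.82, and Ccl7 was not tested between genotypes.

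The difference between libraries 1 to 3 and libraries 4 and 5 was taken up by comparing within each set, an alternative chosen after the data were seen. Within both sets, all rAPOE libraries lay above all PBS libraries for 7 of the 10 ligands (Ccl2, Ccl3, Ccl4, Ccl5, Ccl12, Cxcl10 and Cxcl16), a pattern that 2.75% of tested genes had, and below for Ccl6 (2.82% of tested genes). In libraries 1 to 3 the means of rAPOE were 5.83-fold those of PBS for Ccl2, 3.12-fold for Ccl3 and 1.61-fold for Ccl4, and in libraries 4 and 5 they were 5.0-fold, 4.46-fold and 3.75-fold. For Ccl5 the ratios were 59.2 and 30.4, for Ccl12 4.25 and 7.79, for Cxcl10 5.71 and 13.3, and for Cxcl16 4.16 and 4.98. Cxcl2 and Ccl7 had ratios of 0.678 and 1.85 in libraries 1 to 3 and of 4.24 and 16.3 in libraries 4 and 5. With a term for the set in limma, 6 of 10 ligands passed as higher, where 0.623% of all genes passed as higher and 0.41% as lower. Ccl2 (adjusted p = 0.0197) and Ccl3 (0.0143) joined the 4 others, and Ccl4 (0.0615) and Ccl6 (0.0772) did not pass. In libraries 1 to 3 alone 4 of 10 passed (Ccl5, Ccl12, Cxcl10 and Cxcl16), where 0.0724% of all genes passed as higher and 0.0145% as lower. In libraries 4 and 5 alone 9 of 10 passed, 8 as higher and Ccl6 as lower, where 1.56% passed as higher and 1.17% as lower, with 2 libraries a group.

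Library rAPOE 5 had the highest summed level of the 10 ligands, 12117, against 2086 to 5802 in the other rAPOE libraries and 808 to 1958 after PBS, and rAPOE 3 was the lowest of its group for 6 ligands. Without both libraries numbered 5, the same 4 ligands were called, with differences of 6.22 for Ccl5, 2.63 for Cxcl10, 2.25 for Ccl12 and 1.98 for Cxcl16, where 0.142% of all genes passed as higher and 0.0142% as lower.

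Summed levels of markers of other immune cells overlapped between the injection groups. Most of these markers were too low for the test or had no row. Those tested were 1 of 10 monocyte, 1 of 9 border macrophage and 3 of 10 neutrophil markers, and 0 passed. Single monocyte markers went both ways. Itgal averaged 1.77 after PBS and 14.7 after rAPOE, and Plac8 0.132 and 4.93. Chil3 averaged 4.71 and 0.622, and F13a1 differed by -0.39 (limma adjusted p = 0.931). A difference in the number of these cells was not tested. Of the 11 T and natural killer cell markers 1, Klrd1, has a row in the injection table, at 0 to 1.6 after PBS and 0 to 2.33 after rAPOE, and the others were not analysed here. The 10 monocyte markers summed to 13.9 to 72.7 and 20.0 to 79.7, the 6 neutrophil markers with a row to 35.6 to 166 and 6.02 to 97.9, and the 8 border macrophage markers with a row to 11.4 to 65.6 and 10.9 to 64.6, after PBS and rAPOE in turn. Microglial markers moved, with 3 of 11 lower after rAPOE, beside 0.113% of all tested genes: P2ry12 (1428 ± 159 to 494 ± 360, limma adjusted p = 0.00663), Gpr34 (0.0325) and Siglech (0.0261). None of these passed in edgeR (adjusted p of 0.0651, 0.148 and 0.0552). Their sum over 11 markers was 21180 to 25531 after PBS and 18123, 15626, 23245, 13480 and 11069 in rAPOE libraries 1 to 5. Library 3, with the highest sum, was the one with the lowest ligand values most often, and library 5, with the lowest sum, had the highest ligand values most often. Whether this change of markers plays a part in the ligand values was not tested.

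Few other genes of the chemokine system were measured after injection. Of 27 other ligands 3 were tested (Ccl9, Ccl25 and Cxcl13) and 0 passed in limma (0 of them under an unadjusted p of 0.05) or in edgeR, the difference of Cxcl13 being 2.76 (SE 1.33, adjusted p = 0.448). Of 21 tested genes of NF-kB and interferon signalling, Tlr2, the receptor of bacterial lipopeptides, rose from 237 ± 125 to 672 ± 195 (1.59, SE 0.30, limma adjusted p = 0.0102), 0 passed as lower and the median difference was 0.01. Of 17 dissociation genes 1 fell, Btg2 (1299 ± 333 to 621 ± 168, limma adjusted p = 0.0464, not called in edgeR at 0.0875), and 0 rose, with a median difference of -0.69. Among all tested genes 0.368% passed as higher and 0.113% as lower.

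**Figure D4:**
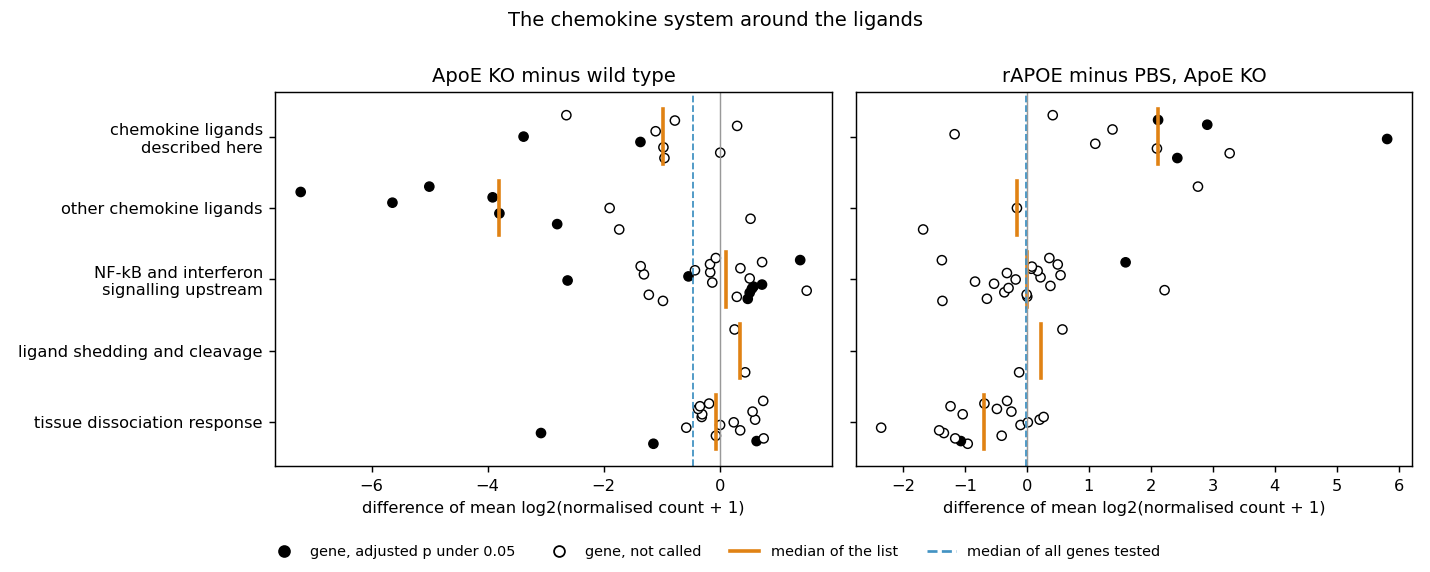
Difference of mean log2(normalised count + 1) of every tested gene (points, filled where the limma adjusted p is under 0.05) in the ligands described here and in the lists of other ligands, upstream signalling, shedding proteases and dissociation genes, with list medians and the median of all genes (dashed). After rAPOE the median of the ligands is 2.11 and those of the other lists lie between -0.69 and 0.22.

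The genotype and the injection comparison use different libraries and tables, so their differences are given side by side and not combined. Ccl5 was lower in the knockout than in the wild type (-3.38) and higher after rAPOE than after PBS (5.82). The genotype call of Ccl5 was lost in edgeR (adjusted p = 0.340) and in DESeq2 (adjusted p = 0.228). It was also lost under quantile rescaling (-0.96) and without knockout library 2 or 4. Knockout library 1 (22.7) lay within the wild-type range. In each table Ccl5 reached the mean needed for the test only through its higher group. For Ccl4 the differences were -1.37 and 1.10, for Ccl3 -0.97 and 2.10, for Cxcl16 -0.77 and 2.12, and for Cxcl2 -2.64 and 0.42. Ccl6 was at lower values in both, with -1.10 and -1.17. Ccl2, Ccl12 and Cxcl10 had genotype differences of 0.01, -0.95 and 0.30, none larger than its SE, and injection differences of 3.27, 2.43 and 2.91. No test of a difference between the comparisons was made.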

How the data were processed

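Microglial RNA of 21 libraries was measured as QuantSeq 3′ FWD tags on an Illumina MiniSeq, per the labels' protocols. The tools named are Picard 1.8.4, HTSeq, R 3.2.3 and DESeq2, and the build GRCm38.p3, per the submitters' processing notes, with no role stated. The strand setting is not given in the sources used here, nor are aligner and annotation, and antisense reads cannot be told apart. The authors deposited a signal per gene (the normalised count), equal to a library's reads divided by one factor. All values above 0 tested were whole multiples of a step in each library (100% within 0.01 of a whole number), so reads could be recovered. The files give no UMIs, so floors (3 reads) cover counting error only. Left out of the genotype table were 22 entries with dates for names (0.0966% of the summed values) and 120 genes at 0.

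Log2(normalised count + 1) was fitted per table in limma 3.58.1 (R 4.3.3) with a trend on intensity, after leaving out genes whose mean over the table was under 10. Passing meant a Benjamini-Hochberg adjusted p under 0.05 over all genes tested. Differences are on this scale, where the pseudocount shrinks changes of low values, but where libraries at or near 0 can also make a difference of mean log2 values larger than the ratio of means. Alternatives were edgeR 4.0.16 (quasi-likelihood) and DESeq2 1.42.0 on recovered reads, TMM and quantile rescaling, a pseudocount of 5, no filter, a mean of at least 50, each library left out, both libraries numbered 5 left out and a replicate block. The fit was tested on simulated data. The members, gene lists and tests were chosen with earlier results of these data known. The genes named are the 10 ligands, list members that passed (up to 6 per list) or account for a small count, and the genes nearest to a ligand by the root mean square distance of centred log2 values. Values given for single markers (Cd4, Cd3e, Cd8a, Nkg7, Klrd1, Fn1, Ly6c2, Chil3, Mrc1, F13a1, Itgal and Plac8) were chosen after they were seen. One listed gene is not reported here.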

Additional observations from a re-analysis of the deposited data

Results flagged for a closer look

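In each of the 4 groups, the highest and the lowest library of every ligand were compared with the rest of the group on the log2 scale, which gave 40 comparisons, and chance alone flags about 1 in 20. Of the 9 values found apart from their group, 6 belonged to wild-type library 8, the lowest of the 7 wild-type libraries for Ccl2 (9.03), Ccl3 (137), Ccl4 (209), Ccl6 (233), Cxcl2 (3.61) and Cxcl16 (61.4). That library also differed in Apoe and in sex markers, as given with the samples. In the knockout, library 1 was apart for Ccl5 (22.7, with 0 in the other 3) and library 3 for Ccl7 (54.0, with 0 in the other 3). After PBS, library 5 was apart for Ccl7 (0). No ligand had a library apart from the rAPOE group.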

How the results depend on the processing

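After injection, the calls of Ccl5, Ccl12, Cxcl10 and Cxcl16 held in all alternatives run. The number of ligands called was 4 with all libraries, 4 to 5 with 1 library left out and 9 in libraries 4 and 5 alone (8 higher, 1 lower; 1.56% and 1.17% of all genes). The genes called in all moved from 34 to 64 with a pseudocount of 5, 67 under quantile rescaling, 115 in DESeq2, 11 without libraries numbered 5, 6 in libraries 1 to 3, 192 in libraries 4 and 5, 73 with the set term and 16 to 74 with 1 library left out. Signs turned for Ccl7 (-0.20 without libraries numbered 5, -0.79 in libraries 1 to 3) and Cxcl2 (-0.11 and -0.41; -0.26 to 0.73 with 1 library left out). Between genotypes, 1 ligand was called with a mean of at least 50, which leaves 5 ligands tested, and 2 to 6 with 1 library left out. The 6 were without wild-type library 8, where 23% of all genes passed as lower. The genes called in all moved from 2596 to 1658 in edgeR and 1289 with a mean of at least 50, and quantile rescaling gave 920 higher and 1027 lower in place of 535 and 2061. Signs turned for Ccl2 (-0.0068 with a pseudocount of 5, -0.026 in DESeq2, -0.34 to 0.29 with 1 library left out), Ccl12 (0.0094 under quantile rescaling, 0.35 in edgeR, 0.32 in DESeq2, -1.74 to 0.60 with 1 library left out) and Cxcl10 (-0.038 to 0.80 with 1 library left out). Beyond the libraries left out, the cause was not tested. Replicate numbers are shared, but libraries of 1 number did not deviate together (correlations of -0.0295 to 0.02 over 4 pairs and of -0.00418 to 0.185 over 5 pairs), and 1 of 8 and 3 of 10 libraries correlated best with their own number. With the number as a replicate block, 6 ligands were called after injection, where 52 of all 7066 tested genes were called. Between genotypes Ccl2 was then at -0.36. The genotype block keeps only numbers found in both groups, so wild-type libraries 6, 7 and 8 are out of it. At 704225 to 1347501 reads per library, few reads set the lowest values after injection. Ccl2 held 2 reads and 1 read in PBS libraries 2 and 3. Ccl5 held 2, 7, 4 and 0 reads in PBS libraries 1 to 4. Ccl7 held 0 in PBS library 5 and rAPOE library 3.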
